A study of Mus musculus with 13 samples.

Results

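The genes described here encode the coats and cargo receptors of the vesicles that move proteins between the endoplasmic reticulum (ER) and the Golgi apparatus. They were chosen by name, as 35 of the 43629 genes in the count files. The list holds 11 genes of the COPII coat, 12 genes of the COPI coat and its ARF GTPases, 10 cargo receptors and 2 golgins. All 35 had a match between Ensembl identifier and mouse symbol, and all 35 passed the filter on low counts.

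COPII vesicles carry newly made proteins out of the ER. The small GTPase SAR1 recruits SEC23 and SEC24, which bind cargo, and SEC13 with SEC31 form the outer cage. COPI vesicles return escaped proteins and membrane from the Golgi to the ER, and an ARF GTPase recruits the whole coatomer complex to the membrane. Cargo receptors span the membrane and link soluble cargo to a coat. Fibroblasts secrete much collagen and other matrix protein, and this traffic passes through COPII carriers.

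RNA was sequenced from mouse embryonic fibroblasts of embryonic stage E12.5, to find the RNAs bound by IMP1 (gene Igf2bp1) and IMP2 (gene Igf2bp2), related cytoplasmic proteins that bind mRNA. In RNA immunoprecipitation (IP) an antibody pulls down a protein with its RNA. IgG, IMP1 and IMP2 IP have 3 libraries each, and the 4 total RNA libraries are a wild type (WT) and a knockout (KO) for IMP1 and likewise for IMP2. The genotype of the IP cells is not labelled, and the labels give no source for each wild type and no word on whether libraries came from separate cultures, so p-values measure only the spread between these libraries, which may be technical. The knockouts are deletions of IMP1 or IMP2, and the labels name no clone or allele.

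The libraries held 11430002 to 21756430 counts in genes. All 8 fibroblast markers reached at least 1 CPM (counts scaled to a common library size, so that libraries can be compared) in every group. Reads in genes, reads outside annotated genes and reads ambiguous between genes were summed, and all other reads were left out. Of this sum, between 29.2% and 30.4% lay outside annotated genes in IgG IP. The share was 9.67% to 9.74% in IMP1 IP, 6.54% to 7.2% in IMP2 IP and 7.49% to 8.28% in the total RNA libraries. A single gene, Gm26917, took 10.3% to 11.3% of the gene counts of the IgG libraries, against 0.41% to 0.528% with the IMP1 antibody and 0.0979% to 0.148% with the IMP2 antibody. The part of these differences in the comparisons with IgG was not tested. Among the IP groups, replicate 1 of IMP2 IP stood furthest from its own group by chi-square of the counts per degree of freedom. This was 7.7 against replicate 2 and 8.07 against replicate 3. The Pearson correlation of log2 CPM was 0.9944 in both pairs, within the range of 0.9942 to 0.9961 over all replicate pairs. Igf2bp1 was at 3.22 CPM in IMP1 KO and between 16.4 and 32.1 CPM in the other total RNA libraries. Igf2bp2 was at 28.4 CPM in IMP2 KO and between 131 and 168 CPM in the others.

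IMP1 IP held more COPII and large COPI subunit RNA than IgG IP, and less RNA of the KDEL receptors and of some small COPI genes. Of the 35 members, 22 were higher than in IgG IP, 8 were lower and 5 did not pass the test (edgeR's quasi-likelihood test, Benjamini-Hochberg adjusted p under 0.05). The background over the 14076 genes tested was 31.7% higher and 31.9% lower, and the members came to 62.9% and 22.9%. The median log2 fold change was 0.31 over the members and -0.03 over all genes. Of all genes called in this comparison 49.8% were higher, a share that became 31.6% with upper quartile scaling and 33.5% with total count scaling, which moved the median of all genes by -0.17 and -0.15.

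IMP2 IP held more RNA of all the cargo receptors and of nearly all COPI genes than IgG IP, and less of Golgb1, Sec24a and Sec16a, although with upper quartile scaling the coats were 12 higher and 5 lower. Here 28 members were higher, 4 lower and 3 did not pass, against a background of 40.3% higher and 37.3% lower. The members' median was 0.44, against 0.04 over all genes. Of all genes called, 51.9% were higher, a share of 39.9% with upper quartile scaling and 62.3% with total count scaling, which moved the median of all genes by -0.18 and 0.18. Both comparisons use the same IgG libraries, so their values are set side by side below without a count of agreement.

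**Figure D1:**
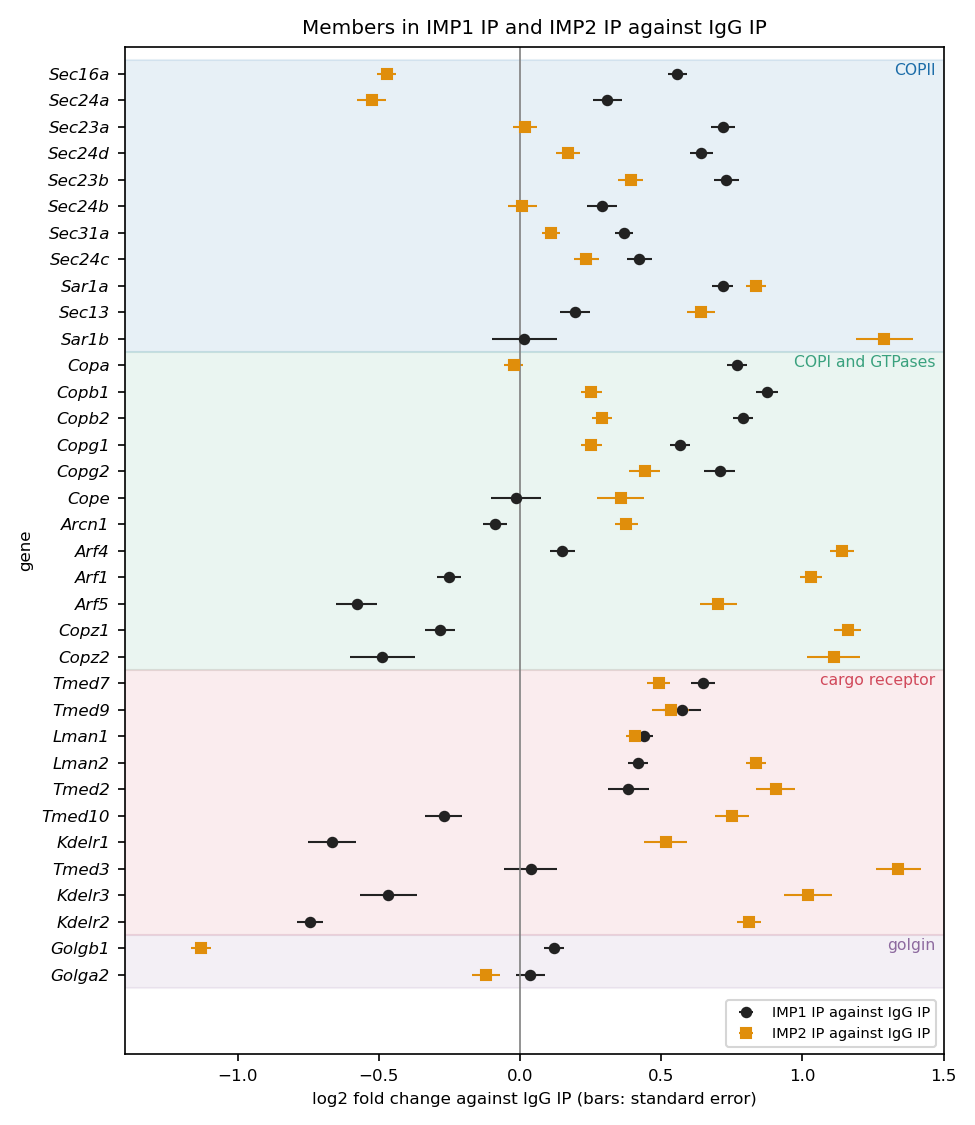
Log2 fold change of each of the 35 members in IMP1 IP (circles) and IMP2 IP (squares) against IgG IP, grouped by role, with standard errors as bars. In IMP2 IP the 10 cargo receptors all lie to the right of 0, while in IMP1 IP the KDEL receptors and Tmed10 lie to the left.

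Among COPII genes, 10 of 11 were higher in IMP1 IP than in IgG IP and 0 were lower, with a median of 0.42, although Sec13 (0.02 with upper quartile and 0.04 with total count scaling) and Sec24b (0.12 with upper quartile scaling) then no longer passed. Sec23b, a GTPase-activating subunit of the inner coat, had 57.7, 58.4 and 60.9 CPM in the IgG libraries and 99.3, 95.7 and 98.9 CPM in the IMP1 libraries. The groups did not overlap, and the log2 fold change was 0.73 ± 0.04 (SE, n = 3 against 3). Its paralog Sec23a had 83.0, 84.9 and 78.4 CPM in IgG IP and 133, 139 and 133 CPM in IMP1 IP, a difference of 0.72 ± 0.04 on the log2 scale (SE). Sar1a, the GTPase that starts COPII assembly, had 125, 117 and 121 CPM in IgG IP and 202, 197 and 198 CPM in IMP1 IP. Sar1b, its paralog needed for export of large lipoproteins, had 17.7, 14.0 and 19.1 CPM in IgG IP and 20.01, 16.97 and 14.64 CPM in IMP1 IP. These overlapped, and Sar1b was the COPII gene that did not pass (adjusted p = 0.917). The other COPII genes lay between these in IMP1 IP: Sec24d at 0.64, Sec16a at 0.56, Sec24c at 0.42, Sec31a of the outer cage at 0.37, Sec24a at 0.31, Sec24b at 0.29 and Sec13 at 0.19.

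In IMP2 IP the COPII genes split. 7 of 11 were higher than in IgG IP and 2 were lower, with a median of 0.17. Sar1b rose most, to 42.1, 45 and 38.2 CPM, above all its IgG libraries, by 1.29 ± 0.10 on the log2 scale (SE, adjusted p = 1.17e-10). Sar1a reached 216, 214 and 218 CPM (0.84 ± 0.04, SE), and Sec13, a subunit of the outer cage, 69.1, 63.9 and 64.7 CPM against 42.9, 42.0 and 41.7 in IgG IP. Sec24a, a cargo-binding subunit, was at 140, 129 and 137 CPM in IgG IP and 83.9, 97.7 and 99.4 CPM in IMP2 IP. Every IMP2 library lay below every IgG library, and the log2 fold change was -0.53 ± 0.05 (SE, adjusted p = 6.13e-09). Sec16a, a scaffold of ER exit sites, was also lower, at -0.47 ± 0.03 (SE). Sec23b (0.39) and Sec24c (0.24) were higher, and Sec23a (0.02) and Sec24b (0.01) did not pass. Both were called lower with upper quartile scaling (-0.16 and -0.17) and with a minimum of 10 CPM in 3 libraries (-0.16 in each), and higher with total count scaling (0.19 and 0.18). The smaller rises of Sec24d (0.17) and Sec31a (0.11) turned to -0.01 and -0.07 with upper quartile scaling, and Sec31a did not pass with DESeq2 (0.04). Sec24c did not pass with upper quartile scaling or with a minimum of 10 CPM in 3 libraries (0.06 in each).

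Some paralog pairs of COPII did not keep the same proportion in each IP. Within a library, the log2 ratio of Sec24a to Sec24b was 0.43 ± 0.10 in IgG IP, 0.45 ± 0.04 with the IMP1 antibody and -0.10 ± 0.08 with the IMP2 antibody (mean ± SD, n = 3). The ratio of Sec23a to Sec23b was 0.48 ± 0.10, 0.46 ± 0.07 and 0.10 ± 0.02 in the same order, and lay between 1.81 and 2.07 in the 4 total RNA libraries. The ratio of Sar1a to Sar1b was 2.85 ± 0.21 in IgG IP, 3.54 ± 0.21 with the IMP1 antibody and 2.37 ± 0.13 with the IMP2 antibody. For each of these 3 pairs the IMP2 libraries did not overlap those of IgG or IMP1, and the ratios do not depend on the scaling between libraries. Other pairs did overlap between IgG IP and IMP2 IP. The ratio of Sec24c to Sec24d was 0.14 ± 0.06 in IgG IP and 0.20 ± 0.11 with the IMP2 antibody. Outside COPII, Copz1 to Copz2 was at 2.79 ± 0.05 and 2.84 ± 0.08, and Kdelr2 to Kdelr3 at 2.77 ± 0.12 and 2.57 ± 0.08.

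COPI genes, whose products form a single complex, fell on both sides of IgG in IMP1 IP. 6 of the 12 COPI and GTPase genes were higher and 4 were lower. Copb1, the beta subunit, had 165, 163 and 157 CPM in IgG IP and 297, 297 and 295 CPM in IMP1 IP. It had the highest log2 fold change of any member in this comparison, 0.88 ± 0.04 (SE, adjusted p = 1.62e-14). Copb2, the beta-prime subunit, had 162, 158 and 164 CPM in IgG IP and 283, 280.2 and 273 CPM in IMP1 IP, a difference of 0.79 ± 0.04 on the log2 scale (SE). Copa, the alpha subunit, went from 419, 415 and 424 CPM to 726, 705 and 709.8 CPM, and the gene overlaps Ncstn, which went from 133 to 136 CPM in IgG IP to 167 to 171 CPM in IMP1 IP. The gamma subunits Copg2 (0.71) and Copg1 (0.57) were also higher.

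The small zeta subunits and the ARF GTPases did otherwise in IMP1 IP. Copz1 was at 55.1, 55.5 and 55.7 CPM in IgG IP and 46.82, 44.92 and 44.98 CPM in IMP1 IP, and Copz2 at 7.69, 8.26 and 8.04 CPM against 5.96, 6.06 and 5.07 CPM. Arf1, which recruits coatomer, was lower at -0.25 ± 0.04 (SE), and Arf5 at -0.58 ± 0.07 (SE). Arf4 was slightly higher (0.15), with values of -0.02 and -0.0033 under upper quartile and total count scaling, which do not pass. Cope, the epsilon subunit, and Arcn1, the delta subunit, did not pass, at -0.01 and -0.09. Arcn1 was called lower with DESeq2 size factors (-0.0995), upper quartile scaling (-0.26), total count scaling (-0.24), a minimum of 10 CPM in 3 libraries (-0.23) and a fit of only the libraries compared (-0.10), and without replicate 3 of IMP1 IP (-0.12, adjusted p = 0.0408).

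In IMP2 IP, 11 of the 12 COPI and GTPase genes were higher than in IgG IP and 0 were lower, although this depended on the settings. With upper quartile scaling Copb1, Copg1 and Cope did not pass and Copa was lower (-0.20). With a minimum of 10 CPM in 3 libraries Copb1 and Cope did not pass and Copa was lower (-0.195). The zeta subunits and the ARF GTPases had the highest values. Copz1 had 132, 121 and 119.7 CPM, all above the 55.1 to 55.7 of IgG IP, a difference of 1.16 ± 0.05 on the log2 scale (SE, adjusted p = 2.49e-15). Copz2 had 17.7, 18.0 and 16.3 CPM (1.11 ± 0.09, SE). Arf4, a GTPase of the early Golgi, went from 90.4, 85.8 and 86.0 CPM in IgG IP to 184, 199.7 and 195 CPM in IMP2 IP. Arf1 went from 89.5, 94.5 and 88.9 CPM to 183, 189.8 and 183 CPM, a difference of 1.03 ± 0.04 on the log2 scale (SE). Copa was at 421, 392 and 425 CPM in IMP2 IP and overlapped IgG IP (-0.02, adjusted p = 0.562). It was also called lower with DESeq2 size factors and the DESeq2 Wald test (-0.09 in each), and higher with total count scaling (0.15). Copb1 and Copb2 were higher than IgG by only 0.25 and 0.29. Between these and the highest lay Arf5 (0.70), Copg2 (0.44), Arcn1 (0.38) and Cope (0.36), with Copg1 at 0.25.

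All 10 cargo receptors were higher in IMP2 IP than in IgG IP, with a median of 0.78, and all 10 passed under each of the 4 scalings run. In IMP1 IP 5 were higher, 4 lower and 1 did not pass, also under each of the 4 scalings, with a median of 0.21. Kdelr2, which binds ER chaperones carrying a KDEL-type tail and brings them back, had 126, 125 and 129 CPM in IgG IP, 76.2, 73.7 and 77.2 CPM in IMP1 IP and 208, 229 and 229 CPM in IMP2 IP. The 3 groups did not overlap, and the log2 fold change was -0.74 ± 0.05 (SE) for IMP1 and 0.81 ± 0.04 (SE) for IMP2 against IgG. Kdelr1, of the same receptor family, had 44.0, 43.1 and 42.6 CPM in IgG IP, 25.6, 29.1 and 27.2 CPM in IMP1 IP and 51.9, 68.1 and 64.7 CPM in IMP2 IP. Kdelr3, the third of the family, had 20.2, 17.2 and 18.3 CPM, 14.8, 12.2 and 13.3 CPM, and 33.2, 38.4 and 41.1 CPM in the same order. The KDEL receptors thus lay below IgG in IMP1 IP and above it in IMP2 IP in all 3 libraries of each.

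The TMED genes encode the p24 proteins, which carry lipid-anchored cargo between ER and Golgi. Tmed3 had 12.15, 10.99 and 10.88 CPM in IgG IP, 12.28, 11.67 and 11 CPM in IMP1 IP and 28.3, 30.5 and 27.6 CPM in IMP2 IP. It had the highest log2 fold change of any member in IMP2 IP, 1.34 ± 0.08 (SE, adjusted p = 1.58e-12), and none that passed in IMP1 IP (0.04, adjusted p = 0.737). Tmed10 was lower in IMP1 IP (-0.27 ± 0.07, SE) and higher in IMP2 IP (0.75 ± 0.06, SE). Tmed7 had 154, 154 and 153 CPM in IgG IP, 248, 241 and 232 CPM in IMP1 IP and 202, 227 and 218 CPM in IMP2 IP, so that both IPs stood above IgG. Tmed9 and Tmed2 were also above IgG in both, at 0.57 and 0.38 in IMP1 IP and 0.53 and 0.91 in IMP2 IP.

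Lman1 and Lman2 encode lectins that bind sugar chains on glycoproteins. Lman1 had 189, 184 and 188 CPM in IgG IP, 255, 253 and 254 CPM in IMP1 IP and 253, 245 and 248 CPM in IMP2 IP. Lman2 had 138, 138 and 132 CPM in IgG IP, 182, 181 and 182 CPM in IMP1 IP and 237, 242 and 248 CPM in IMP2 IP. The log2 ratio of Lman1 to Lman2 within a library was 0.46 ± 0.05 in IgG IP, 0.48 ± 0.01 with the IMP1 antibody and 0.04 ± 0.05 with the IMP2 antibody (mean ± SD, n = 3).

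Golgb1 encodes giantin, a long tether of the Golgi membrane. It had 282, 288 and 278 CPM in IgG IP, 309.6, 312 and 300.3 CPM in IMP1 IP and 134, 128 and 126 CPM in IMP2 IP. All IMP2 libraries lay below all IgG libraries, and the value of -1.13 ± 0.04 on the log2 scale (SE, adjusted p = 4.79e-17) was the lowest of any member there. The small rise in IMP1 IP (0.12) changed sign to -0.05 and -0.03 with upper quartile and total count scaling. Golga2, which encodes the matrix protein GM130, did not pass in IMP1 IP (0.04) and was -0.12 in IMP2 IP (adjusted p = 0.0356), a call that was lost without each of the 3 IgG libraries in turn (-0.12 to -0.10) and without replicate 2 or 3 of IMP2 IP (-0.08 in each).

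Set directly against each other, IMP1 IP held more of 13 coat genes and IMP2 IP more of most cargo receptors, and the coats, though not the receptors, changed side with total count scaling. The other 10 of the 23 coat genes were higher in IMP2 IP, and the median log2 fold change over all 23 was 0.26. Of the 10 receptors 1 was higher in IMP1 IP and 7 were lower, with a median of -0.77. With total count scaling, which moved the median of all genes by -0.33, the coats turned to 7 higher and 12 lower (median -0.07) and the receptors to 0 higher and 10 lower. The receptor median minus the coat median was -1.03, a difference within the same libraries that scaling between libraries cannot change. Over all 35 members 16 were higher and 17 lower, against a background of 34.1% higher and 37.3% lower, and the median was 0.03, or -0.02 without replicate 1 of IMP1 IP or replicate 3 of IMP2 IP and -0.03 without replicate 2 of IMP2 IP. Of all genes called 47.7% were higher in IMP1 IP, a share of 27.8% with total count scaling.

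**Figure D2:**
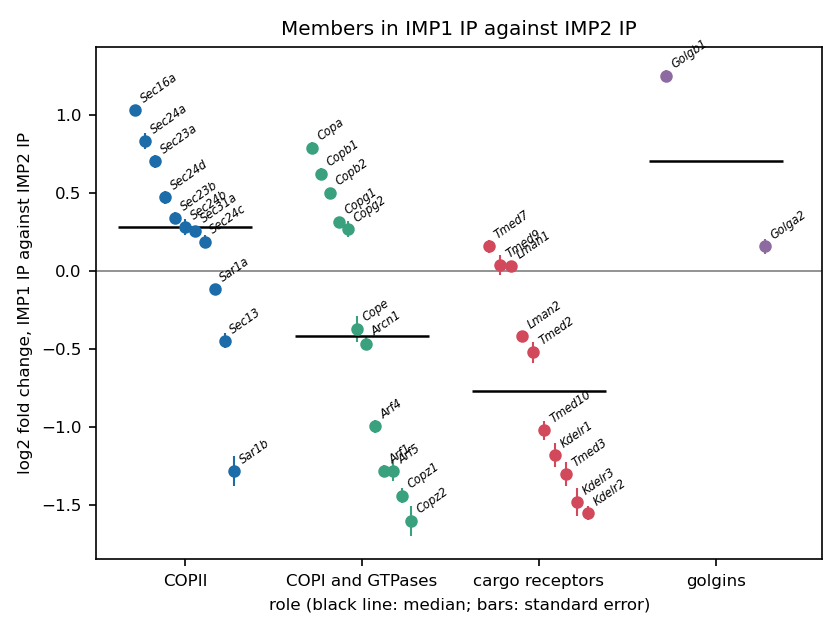
Log2 fold change of IMP1 IP against IMP2 IP for each member by role, with standard errors as bars and the median of each role as a black line. The receptors run from Tmed7 near 0.16 down to Kdelr2 at -1.55, and the COPI genes form an upper group of large subunits and a lower group with the zeta subunits and the GTPases.

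Golgb1 (1.25 ± 0.04, SE) and Sec16a (1.03 ± 0.03, SE) were the members most in favour of IMP1. Sec16a had 389, 379 and 391 CPM in IMP1 IP and 188, 184 and 196 CPM in IMP2 IP, with 261, 265 and 262 CPM in IgG IP between them. Copz2 (-1.60 ± 0.10, SE, adjusted p = 1.05e-12) and Kdelr2 (-1.55 ± 0.04, SE, adjusted p = 1.18e-18) were most in favour of IMP2. In the mouse genome (GRCm38.p6) Golgb1 lies at chr16:36875093-36933085, Sec16a at chr2:26409431-26446293, Copz2 at chr11:96849876-96861203 and Kdelr2 at chr5:143403820-143421904, all annotated as protein-coding. Next to Copz2 and Kdelr2 stood Kdelr3 (-1.48), Copz1 (-1.44), Tmed3 (-1.3), Arf1 (-1.28), Arf5 (-1.28) and Sar1b (-1.28). Among COPII genes IMP1 IP was the higher for 8 and the lower for 3, although Sec24b, Sec24c and Sec31a turned negative with total count scaling (-0.04, -0.14 and -0.07), where Sec23b did not pass (0.01, adjusted p = 0.789). Sar1a, among the 3 lower, did not pass with DESeq2 size factors or the DESeq2 Wald test (-0.06 in each) or in a fit of only the libraries compared (-0.08). Of the COPI and GTPase genes 5 were higher and 7 lower. The 5 COPI genes that were higher were Copa, Copb1, Copb2, Copg1 and Copg2, of which Copg1 and Copg2 stood at -0.01 and -0.06 with total count scaling. Lman1 and Tmed9 did not pass (0.03 and 0.04). Lman1 was called higher with DESeq2 size factors and the DESeq2 Wald test (0.08 in each) and lower with total count scaling (-0.30), and Tmed9 passed at 0.14 (adjusted p = 0.000292) without replicate 1 of IMP2 IP. Golga2 (0.16) did not pass without replicate 2 of IMP1 IP (0.11, adjusted p = 0.0897).

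Receptor reads made up a larger part of the vesicle gene counts in IMP2 IP than in the other IPs. Of the counts of coats and receptors together, receptors held 23.6%, 23.7% and 23.6% in the IgG libraries, 21.5%, 21.0% and 20.8% in the IMP1 libraries and 28.3%, 28.9% and 28.3% in the IMP2 libraries. The 3 groups did not overlap. In total RNA the share was 30.5% in IMP1 WT, 32.0% in IMP2 WT, 29.2% in IMP1 KO and 32.6% in IMP2 KO, above all 9 IP libraries.

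**Figure D3:**
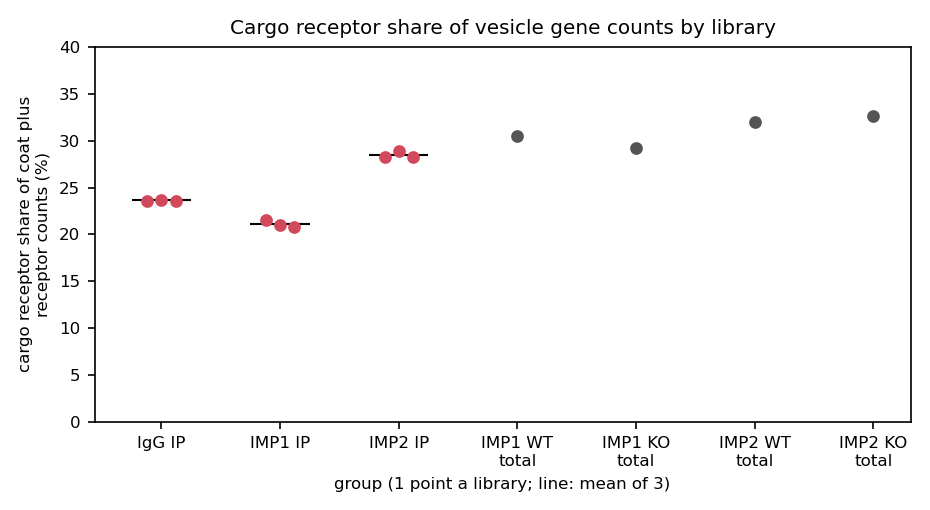
Percentage of coat plus receptor counts that came from the 10 cargo receptors, 1 point for each of the 13 libraries, with lines at the mean of 3. The IMP1 IP libraries lie lowest (20.8% to 21.5%), and the IMP2 IP libraries (28.3% to 28.9%) lie between IgG IP and the total RNA libraries.

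The genes' span in the genome ran alongside the direct comparison. Over the 35 members Spearman's rho between genomic span and log2 fold change was 0.42 for IMP1 against IgG, -0.61 for IMP2 against IgG and 0.68 for IMP1 against IMP2. Over the 13012 tested genes with a span in the RefSeq table it was 0.29, -0.19 and 0.31. Arf5, with 2999 bases, and Tmed3, with 5841 bases, are short genes on the IMP2 side, and Golgb1, with 57993 bases, is a long gene on the IMP1 side. Other members did not follow this. Tmed9, with 4563 bases, stood at 0.04 in IMP1 IP against IMP2 IP. Copg2, the longest with 149262 bases, stood at 0.27, and Tmed10, with 34104 bases, at -1.02. The points share the same libraries, and the span includes introns, so it is not the length of the mRNA. The part of span in the result was not tested.

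Compared with total RNA of the wild-type cells, most members were under-represented in every IP, IgG included. In a fit of the 9 IP and 2 wild-type total RNA libraries, IMP1 IP exceeded total RNA for 10 members and lay below it for 21, against a background of 41.4% higher and 44.7% lower among 16157 genes. In IMP2 IP 7 were higher and 25 lower (background 39.5% and 41.6%). In IgG IP, a contrast added after seeing the data, 4 were higher and 28 lower (background 43.7% and 44.4%). The members' medians were -0.55, -0.41 and -0.99 in this order, and those of all genes -0.03, 0.02 and -0.01. The number higher in IMP1 IP dropped to 6 with total count scaling, and in IMP2 IP to 4 with upper quartile scaling.

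Copz2 and Tmed3 stood furthest below total RNA. Copz2 had 149 CPM in IMP1 WT and 171 CPM in IMP2 WT total RNA, and its log2 fold change against these was -4.60 ± 0.09 in IMP1 IP, -3.04 ± 0.08 in IMP2 IP and -4.16 ± 0.09 in IgG IP (SE). Tmed3 had 181 and 228 CPM in these libraries, and its values were -3.92 ± 0.09, -2.66 ± 0.08 and -4.00 ± 0.10 (SE). The paralog ratio moved with it: the log2 ratio of Copz1 to Copz2 was between -0.50 and 0.20 in total RNA and between 2.74 and 3.14 in the 9 IP libraries. Sec16a, Sec24a and Golgb1 were above total RNA in all 3 IPs. Sec16a had 108 and 119.7 CPM in total RNA and log2 fold changes of 1.97 in IMP1 IP, 0.90 in IMP2 IP and 1.37 in IgG IP. Sec24a, with 54.3 and 59.3 CPM in total RNA, had 1.77, 0.89 and 1.42. Golgb1, with 113 and 137.6 CPM in total RNA, had 1.5, 0.21 and 1.34. IgG IP, which holds no antibody to IMP1 or IMP2, thus lay on the same side of total RNA as both IPs for each of these genes. The comparison takes the pair of wild-type libraries as replicates although their labels differ, and total RNA and IP libraries differ in how the RNA was obtained.

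**Figure D4:**
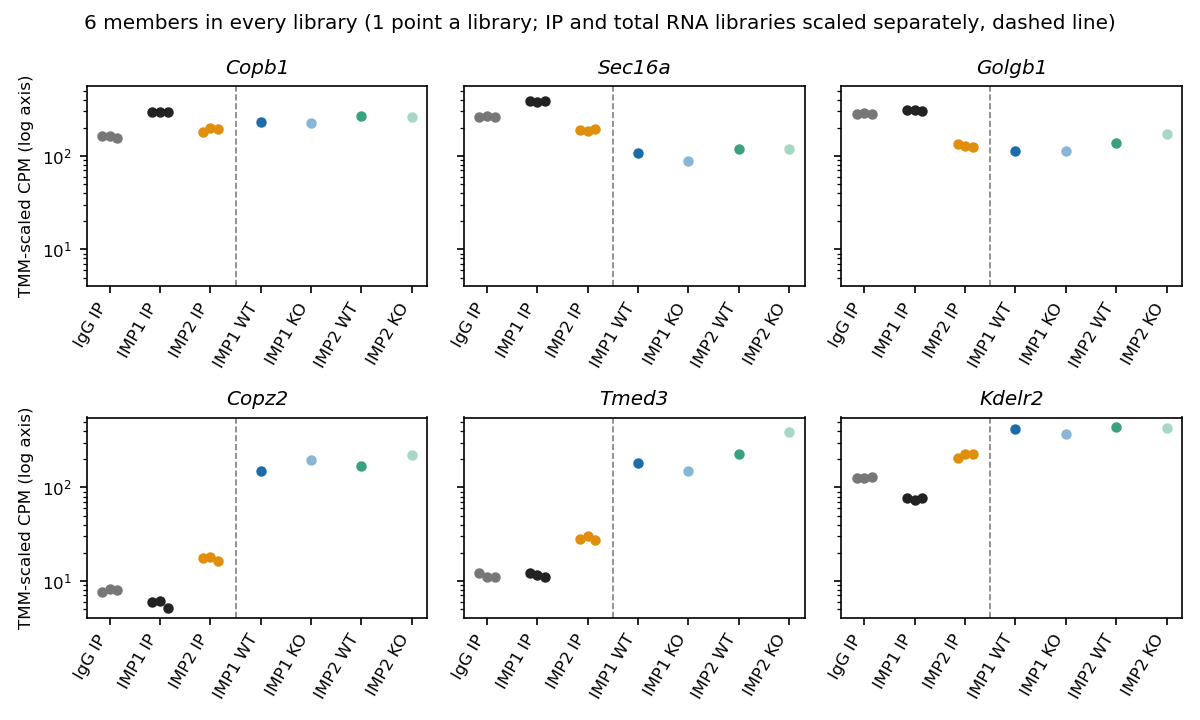
Scaled CPM (log axis) of Copb1, Sec16a, Golgb1, Copz2, Tmed3 and Kdelr2 in each library, 1 point a library. IP and total RNA libraries, on either side of the dashed line, were scaled separately. Copz2 in the IP libraries lies between 5.07 and 18.0 CPM, with the IMP2 libraries highest.

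In the knockouts few members reached a 1.5-fold difference, the size used here to call a gene because each genotype has 1 library and no test can be made. In IMP1 KO 0 members were higher and 1 was lower than in IMP1 WT, against a background of 11.9% higher and 13.4% lower among the 10323 genes that reached 10 CPM in any of the 4 libraries. In IMP2 KO 2 were higher and 1 lower than in IMP2 WT, against 15.1% higher and 15.1% lower. The members' median log2 ratio was -0.13 in IMP1 KO and -0.04 in IMP2 KO, and that of all genes -0.02 and -0.01. The receptor median minus the coat median was -0.03 in IMP1 KO and 0.0038 in IMP2 KO. In this bulk RNA, fewer cells of a type and less RNA per cell cannot be told apart.

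Tmed2, a p24 receptor, was the member more than 1.5-fold lower in IMP1 KO. It had 25.9 CPM (306 counts) in IMP1 KO and 49.5 CPM (733 counts) in IMP1 WT, a ratio of 0.524 with an exact 95% interval of 0.457 to 0.600 that covers counting error only. In IMP2 WT and IMP2 KO it had 53.7 and 44.9 CPM. Next came Sec24d, a cargo-binding COPII subunit, at 102 CPM in IMP1 KO and 152 CPM in IMP1 WT (log2 ratio -0.58), just short of 1.5-fold. At the other end Copz2 had 196 CPM in IMP1 KO against 149 (0.40), and Sar1a 498 against 439.5 (0.18). Of the 11 COPII genes 9 were negative in IMP1 KO, with a median of -0.17, and 9 in IMP2 KO, with a median of -0.22. Of the 10323 genes, 5373 were negative in IMP1 KO and 5242 in IMP2 KO. In each knockout 0 COPII genes reached 1.5-fold.

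In IMP2 KO, Copg2, a gamma subunit of COPI, had 149.6 CPM against 70.3 CPM in IMP2 WT, a ratio of 2.13 (exact 95% interval 1.99 to 2.28). It had 59.2 and 52.9 CPM in IMP1 KO and IMP1 WT. Copg2 lies at chr6:30747554-30896815 (GRCm38.p6) and overlaps Mest, which was at 1740 CPM in IMP2 KO and 152 CPM in IMP2 WT. No source used here says whether reads were counted by strand, so reads of Copg2 and Mest cannot be told apart. Its paralog Copg1 was at 312 and 334 CPM. Tmed3 had 389.9 CPM in IMP2 KO against 228, a ratio of 1.71 (1.64 to 1.78), and its relative Tmed10 266 against 187 (log2 ratio 0.51). Kdelr3 was lower, at 125 CPM against 199.7, a ratio of 0.624 (0.590 to 0.659), while Kdelr1 (270.1 and 260 CPM) and Kdelr2 (431 and 448 CPM) differed little. Kdelr3 overlaps Ddx17, which had a log2 ratio of 0.33. Sar1b, at 70.5 CPM against 102 (log2 ratio -0.54), was the next lowest.

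The knockout libraries also differed in genes of other cell types. The 4 cartilage markers summed to 11417 CPM in IMP2 KO and 185 CPM in IMP2 WT, and all 4 reached 1 CPM in both. The 5 macrophage markers summed to 266 CPM in IMP2 KO, where 5 reached 1 CPM, and 29.1 CPM in IMP2 WT, where 4 did, and 0 were at 0 in either. The fibroblast markers summed to 43534 and 36088 CPM. In IMP1 KO the cartilage sum was 164 CPM against 366 CPM in IMP1 WT. The 4 skeletal muscle markers summed to 3.63 CPM in IMP2 KO and 103 CPM in IMP2 WT. In IMP1 KO they summed to 111 CPM and in IMP1 WT to 321 CPM. Only 1 of the 4, Acta1, reached 1 CPM in each of these libraries. Acta1 alone was at 3.57, 103, 111 and 321 CPM in the same order. The 4 neural markers summed to 60.3 and 213 CPM in the IMP2 pair and to 125 and 289.5 CPM in the IMP1 pair, KO first. Nes was lower in both knockouts, at 8.057 and 146.8 CPM and at 67.05 and 239.5 CPM in the same order. The other neural markers went both ways. In IMP2 KO Map2 (41.21 and 26.08 CPM) and Sox2 (2.891 and 0.7082 CPM) were higher and Tubb3 (8.18 and 39.01 CPM) was lower. In IMP1 KO Tubb3 was higher (46.19 and 32.33 CPM), and Map2 and Sox2 were lower. Of the fibroblast markers, Thy1 (93.3 and 692 CPM, KO first) and Vim (5311 and 5468 CPM) were lower in IMP2 KO. Pdgfra (311.5 and 83.0 CPM), Pdgfrb (462 and 258 CPM), Dcn (223 and 70.2 CPM), Col1a1, Col1a2 and Col3a1 were higher there. The part of these differences in the values of Tmed3, Copg2, Kdelr3 and Tmed2 was not tested.

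**Figure D5:**
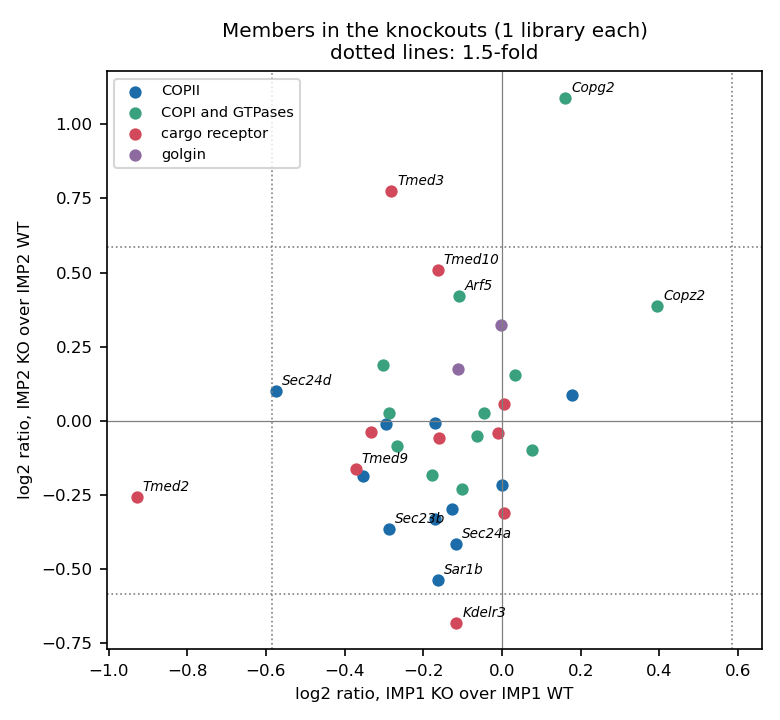
Log2 ratio of each member in IMP1 KO over IMP1 WT (horizontal) and in IMP2 KO over IMP2 WT (vertical), 1 library each, coloured by role, with dotted lines at 1.5-fold. Tmed2 lies left of the lines, Copg2 and Tmed3 above and Kdelr3 below, and the other members lie inside.

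The other genes of ER to Golgi transport were taken from a list of 74, of which 71 were tested. In IMP1 IP against IgG IP 28 were higher (39.4%, against 31.7% of all genes), 20 lower (28.2%, against 31.9%) and 23 did not pass, with a median of 0.04. Trappc11 (0.90) and Trappc8 (0.84), subunits of the TRAPP tethering complex, and Nbas (0.82), of the tether for retrograde vesicles at the ER, were highest among those that passed with an average log2 CPM of at least 3. Arf3 (-1.33), a GTPase close to Arf1, the SNARE Stx5a (-0.68) and Trappc6b (-0.42) were lowest among the same. In IMP2 IP against IgG IP 48 were higher (67.6%, against 40.3% of all genes), 13 lower (18.3%, against 37.3%) and 10 did not pass, with a median of 0.45. By the same minimum level, Surf4 (1.3) and Cnih1 (1.28), both ER cargo receptors, and Pef1 (1.25), a regulator of COPII assembly, were highest, and Nbas (-0.54), Scfd2 (-0.42) and Blzf1 (-0.35) lowest. Of the 16 further receptors and adaptors tested, 12 were higher in IMP2 IP than in IgG IP and 2 lower, and in IMP1 IP 8 were higher and 5 lower. In the direct comparison 1 of these 16 was higher in IMP1 IP and 13 lower, and of the 12 SNAREs 0 were higher and 11 lower. Over the 71, 21.1% were higher and 64.8% lower there, against 34.1% and 37.3% of all genes. In the knockouts, of 68 listed genes above the minimum level, 2 were higher and 2 lower in IMP1 KO, and 3 and 3 in IMP2 KO, against the backgrounds of 11.9% and 13.4%, and of 15.1% each, given above.

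The RefSeq promoter table (GRCm38.p6) gave the stretch from 250 bases before to 50 bases after each listed start for 29 of the 35 members. It was searched on both strands for 6 motifs, because several vesicle genes are known targets of the unfolded protein response, which raises ER capacity under stress. The core of the unfolded protein response element, TGACGTGG, was in 6 of the 29 members' promoters (20.7%) and in 193 of 27025 genes (0.714%). It shares its first 6 letters with the cyclic AMP response element TGACGTCA, found in 1 member, Cope (3.45%), and in 2.03% of genes. The GC box GGGGCGGGGC was in 7 members (24.1%) and 7.97% of genes. The ER stress element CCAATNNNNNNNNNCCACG, its second form ATTGGNCCACG and the lysosomal element GTCACGTGAC were in 0 members, and in 0.137%, 0.0444% and 0.37% of genes. A match describes the letters only. A gene with several starts counted if any of them matched (32851 promoters for 27025 genes). The background was every gene with a listed promoter, not only those expressed here. The Sec24d match lies by a start inside the gene, whose annotated span begins at base 123264801 of chromosome 3. The windows of 30 bases around the 6 matches to the core are shown 5′ to 3′ on the gene's strand, with the match in capitals, since members of all 3 classes (COPII, COPI with its GTPases, cargo receptors) hold it:
Sec23a: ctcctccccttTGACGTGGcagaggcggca
Sec24d: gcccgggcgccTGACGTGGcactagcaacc
Copb1: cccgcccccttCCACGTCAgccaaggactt
Copb2: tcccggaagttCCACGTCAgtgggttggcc
Arf1: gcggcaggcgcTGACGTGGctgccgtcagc
Kdelr3: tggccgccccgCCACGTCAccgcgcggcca

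These windows lie at chr12:59011993-59012022 on the minus strand for Sec23a, chr3:123267459-123267488 on the plus strand for Sec24d, chr7:114254690-114254719 on the minus strand for Copb1 and chr9:98563713-98563742 on the plus strand for Copb2. Those of Arf1 and Kdelr3 lie at chr11:59228228-59228257 on the minus strand and chr15:79516367-79516396 on the plus strand. In Copb1, Copb2 and Kdelr3 the motif reads in reverse complement. In IMP1 IP against IgG IP Sec23a, Sec24d, Copb1 and Copb2 were higher, as given above, and Arf1 and Kdelr3 lower. An IP value measures RNA pulled down, not transcription, so it cannot show whether genes with the motif respond together. The log2 ratios in IMP1 KO were -0.17 for Sec23a, -0.58 for Sec24d and -0.06 for Copb1. Copb2 stood at -0.27 there, Arf1 at -0.18 and Kdelr3 at -0.12. In IMP2 KO the values were -0.33, 0.10, -0.05, -0.09, -0.18 and -0.68 in the same order. The part of the motif in these values was not tested.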

How the data were processed

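Whole-number read counts per Ensembl gene were deposited by the authors, 1 file per library, from STAR and HTSeq on mm10 per the submitters' processing notes, with no versions. Overlapping genes and near-identical copies are uncertain, because no source used here states the strand setting of the counting. The 5 closing tally lines were left out of library sizes. Symbols matched 42462 of 43629 genes.

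The 9 IP libraries entered 1 quasi-likelihood fit in edgeR 4.0.16 (R 4.3.3) with TMM scaling (factors 0.894 to 1.13), the default filter by group and no covariate, 2-sided. Standard errors are the log2 fold change over the square root of F. A second fit added the 2 wild-type total RNA libraries. Printed CPM are TMM-scaled within the IP and, separately, the total RNA libraries. Knockout log2 ratios used a prior count of 2. IP precision rests on 11840189 to 21756430 gene counts per library.

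The members, roles and lists were chosen with earlier results of these data known. All members are accounted for, with library values for at least the 2 highest and 2 lowest in each comparison and, from the pathway list, the 3 highest and 3 lowest against IgG that passed with average log2 CPM of at least 3. Of the steps, only the edgeR fit was tested on simulated data, for IMP1 IP against IgG IP. Alternatives covered DESeq2 1.42.0, limma 3.58.1 voom, scaling, filters, the replicate block and each library left out.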

Additional observations from a re-analysis of the deposited data

Results flagged for a closer look

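11 members passed the test in opposite directions against the shared IgG libraries and also in the direct test of IMP1 IP against IMP2 IP, which is the test of the difference between the 2 antibodies' effects. They were 31.4% of the 35 members, and 17.4% of the 14076 genes tested met the same rule. On the IMP1 side were Golgb1 (1.25), Sec16a (1.03) and Sec24a (0.83), given as log2 fold changes of IMP1 IP against IMP2 IP. On the IMP2 side were the COPI zeta subunits Copz2 (-1.60) and Copz1 (-1.44), the GTPases Arf1 (-1.28) and Arf5 (-1.28), and the receptors Kdelr2 (-1.55), Kdelr3 (-1.48), Kdelr1 (-1.18) and Tmed10 (-1.02). The rise of Golgb1 in IMP1 IP over IgG IP changes sign with the scaling, as given above. Single members' values were not tested for an outlying library, since each IP group has 3.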

How the results depend on the processing

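Of the members' values in the 3 IP comparisons under other settings, 508, 492 and 507 of 525 each kept their call (IMP1 against IgG, IMP2 against IgG, IMP1 against IMP2), where a change of sign in a value that passed in neither setting is not counted. The cause of the changes was not tested unless stated. With IMP1 against IgG, upper quartile scaling gave 2952 genes higher (4457 as reported), Arf4 -0.0219, Golgb1 -0.05 and Golga2 -0.13. Total count scaling gave Arf4 -0.00329 and Golgb1 -0.0315, and a minimum of 10 CPM in 3 libraries gave Golgb1 -0.0217. With IMP2 against IgG, upper quartile scaling gave 7 members lower, Sec23a -0.16, Sec24b -0.17, Sec24d -0.00905 and Sec31a -0.0698, and the 10 CPM minimum gave 7 members lower, Sec23a -0.16, Sec24b -0.16, Sec24d -0.0027 and Sec31a -0.0636, with 3761 genes higher and 3479 lower among fewer tested. Total count scaling gave Copa 0.15 and Golga2 0.0547. With IMP1 against IMP2, total count scaling gave 8 members and 2908 genes higher, a members' median of -0.30, and Sec24b -0.0436, Sec24c -0.14, Sec31a -0.068, Copg1 -0.0132, Copg2 -0.0604, Tmed7 -0.17, Tmed9 -0.29, Lman1 -0.30 and Golga2 -0.17. The members' median there was -0.0028 with no count filter. Against wild-type total RNA, members higher were 6 for IMP1 IP (total count scaling) and 4 for IMP2 IP (upper quartile scaling).

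With each library left out in turn, receptors minus coats ranged from -0.193 to -0.126 for IMP1 against IgG, 0.387 to 0.547 for IMP2 against IgG, -1.05 to -0.977 for IMP1 against IMP2, and, against wild-type total RNA, -1.17 to -1.13 for IMP1 IP, -0.445 to -0.37 for IMP2 IP and -0.86 to -0.799 for IgG IP. The members' median for IMP1 against IMP2 ranged from -0.0258 to 0.0434.

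In the knockouts, a 2-fold minimum left 0 members lower in IMP1 KO, and 1 higher and 0 lower in IMP2 KO, with 543 genes higher and 774 lower in IMP1 KO and 797 and 797 in IMP2 KO. A minimum of 1 CPM gave 2008 and 2683 genes in IMP1 KO and 2770 and 2455 in IMP2 KO. Without Copg2, added after seeing the data, 1 member was higher in IMP2 KO. The replicate block, with numbers that do not pair the libraries (same-numbered correlations -0.06 to 0.07, 3 of 9 libraries correlating best with their own number), gave 22 members higher and 8 lower for IMP1, 28 and 4 for IMP2, and 16 and 17 between them, with no member's call changed. Depth limits Copz2 most among the members, with 82 to 409 counts in each IP library.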
